A study of Mus musculus with 6 samples.

Results

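Aminoacyl-tRNA synthetases are the enzymes that load each amino acid onto its transfer RNA. The set described here comprises 36 mouse genes chosen by symbol, 20 whose products work in the cytosol or in both compartments and 16 whose symbols end in 2 and whose products work in mitochondria. All 36 were found among the 24062 symbols of the gene count table, and all 36 had enough reads to be among the 13300 genes tested. RNA was sequenced from brown adipose tissue, the heat-producing fat depot, of male C57BL/6 mice aged 12 weeks. The labels put 3 mice in a FAM195A heterozygous group and 3 in a FAM195A knockout group, so both groups carry at least 1 disrupted copy and no wild-type group was analysed here. The series presents FAM195A as a stress granule protein that binds RNA and takes part in cold-induced heat production. No label states the kind of allele or the housing temperature.

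Cells keep separate sets of synthetases for their 2 protein-making systems. The cytosolic enzymes charge the transfer RNAs that read nuclear messages, and several of them sit together in a multisynthetase complex. The mitochondrial enzymes are also encoded in the nucleus, are imported, and charge the transfer RNAs with which mitochondria make the core subunits of the respiratory chain, on which brown fat depends. Most amino acids therefore have a pair of genes, such as Iars and Iars2 for isoleucine. Gars (glycine) and Kars (lysine) each serve both compartments from 1 gene, Eprs charges both glutamate and proline in the cytosol, and Farsa and Farsb are the subunits of 1 cytosolic enzyme. Many cytosolic synthetase genes are known targets of ATF4, the transcription factor that is made more when amino acids are short or cells are stressed.

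Counts in genes ran from 18781401 to 20471963 reads in the heterozygous-labelled libraries and from 22418031 to 25084627 in the knockout-labelled ones, which was 43.9% to 48.4% and 51.0% to 58.3% of the column totals. Levels of the targeted gene, Fam195a, overlapped between the labels. It stood at 69.0, 70.5 and 103 CPM (read counts scaled to a common library size) across heterozygous 1 to 3. Across knockout 1 to 3 it stood at 50.5, 82.0 and 81.3 CPM (log2 -0.18, SE 0.241, edgeR adjusted p = 0.896). With the kind of allele unstated, whole-gene counts can neither bear out nor contradict the labels. Every direction below is therefore that of the libraries labelled knockout against those labelled heterozygous. Adipocyte and brown adipocyte markers, among them Ucp1 and Cidea, had counts in every library, with summed brown markers of 7719 to 10315 CPM and 7628 to 12186 CPM in the 2 groups. Of 11 brown markers 8 had log2 fold changes below 0, and 1 rose: Elovl3, a fatty acid elongase (log2 1.03, edgeR adjusted p = 0.0418). Skeletal muscle markers lay apart by label: all 20 of 20 were present in every library and had log2 fold changes below 0 (median -2.21), with sums of 10719 to 31518 CPM against 3791 to 6639 CPM. None of the 20 passed the test. In bulk tissue, fewer cells of a type and less RNA per cell cannot be told apart. Endothelial, macrophage and fibroblast sums overlapped between the groups, and lymphocyte markers summed to at most 2.37 CPM. The title prefix was RE for heterozygous 3 and knockout 3 and RF for the other 4 libraries, so the main values are also given by prefix. The RE-titled pair has 1 library per label and no test.

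The 2 compartments lay mostly on opposite sides of 0. All 16 mitochondrial synthetases had log2 fold changes below 0 (46.9% of all tested genes did), with a median of -0.68 against 0.02 for all tested genes. Of the cytosolic or shared synthetases, 19 of 20 had log2 fold changes above 0 (53.1% of all tested genes did), with a median of 0.16. The exception was Qars at -0.04. That count was 16 with library size only and without heterozygous 1, 17 without knockout 1, and 18 or 19 under the other alternatives that refit the genes, while the mitochondrial count stayed at 16 in each. Against all genes tested, 2 mitochondrial members fell, Iars2 and Nars2, where 0.534% of all tested genes were called lower (edgeR's quasi-likelihood test with adjusted p below 0.05). No cytosolic member passed, where 0.0526% of all tested genes were called higher. Within the RF-titled libraries 16 mitochondrial members were below 0 (48.6% of genes) and 19 cytosolic ones above 0 (51.4%). In the RE-titled pair 15 mitochondrial members were below 0 (49.1%) and 17 cytosolic ones above 0 (50.9%). The count of 2 mitochondrial calls depends on the libraries: it was 2 without heterozygous 1 (2.81% of all genes called lower), 4 without knockout 3 (0.73%) and 0 without heterozygous 2, heterozygous 3, knockout 1 or knockout 2. Without heterozygous 2, knockout 1 or knockout 2 no gene of the whole table was called (0%), and without heterozygous 3 the share called lower was 0.0445%. It was 10 by DESeq2 (5.04% of all genes called lower), 7 with the title prefix as a covariate (1.78%), 7 by limma-voom (1.24%), 4 within the RF-titled libraries (0.85%) and 9 at an adjusted p below 0.1 (3.31%). Of cytosolic members, DESeq2 called Farsb and Yars higher (0.995% of all genes called higher). Yars alone was called by limma-voom (0.218%), with the prefix as a covariate (0.492%) and at an adjusted p below 0.1 (0.451%).

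**Figure D1:**
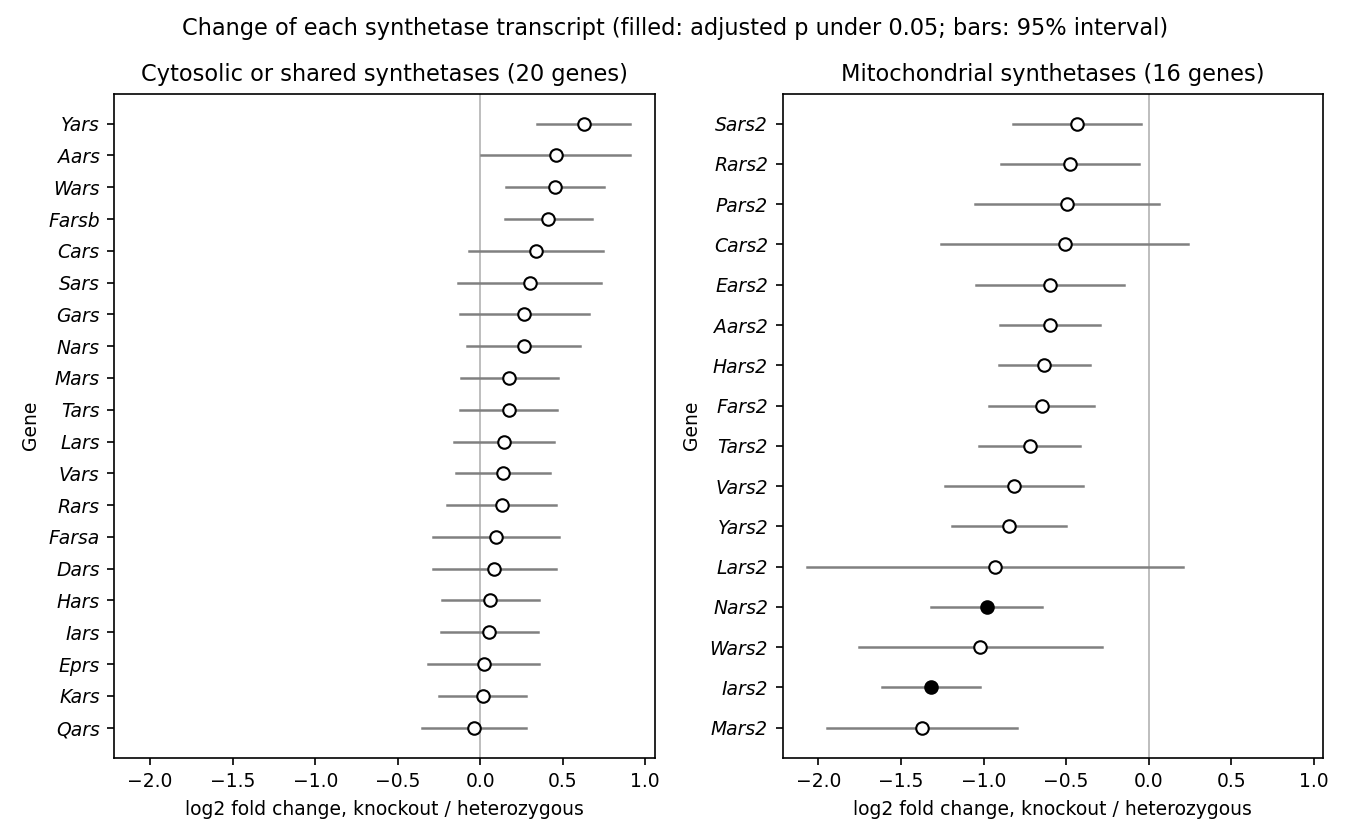
Log2 fold change of each synthetase transcript, knockout-labelled over heterozygous-labelled, on the x axis and genes on the y axis. Points are edgeR estimates from 3 libraries against 3, bars their 95% intervals, and filled points passed an adjusted p of 0.05. All 16 mitochondrial points lie left of 0, from -0.43 to -1.37, and 19 of the 20 cytosolic points lie right of it, up to 0.63 (16 of 20 with library size only and without heterozygous 1).

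The same split was visible library by library. In 13 of the 16 mitochondrial genes all 3 knockout-labelled libraries lay below all 3 others, where 9.89% of all tested genes did so. The exceptions were Cars2, Pars2 and Lars2. At an unadjusted p below 0.05, 13 mitochondrial members were lower (8.04% of all tested genes). Among cytosolic members, Farsb, Vars, Wars and Yars had knockout-labelled libraries all above the others, 4 of 20 where 8.11% of all tested genes did so. At an unadjusted p below 0.05, 4 cytosolic members were higher: Aars, Farsb, Wars and Yars (4.05% of all tested genes). The median deviation of the 16 mitochondrial genes from their heterozygous mean was 0.05, -0.05 and 0.03 in heterozygous 1, 2 and 3 and -0.73, -0.58 and -0.74 in knockout 1, 2 and 3. For the cytosolic genes it was -0.04, 0.11 and -0.06 and then 0.24, 0.25 and 0.05, so heterozygous 2 lay above knockout 3.

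**Figure D2:**
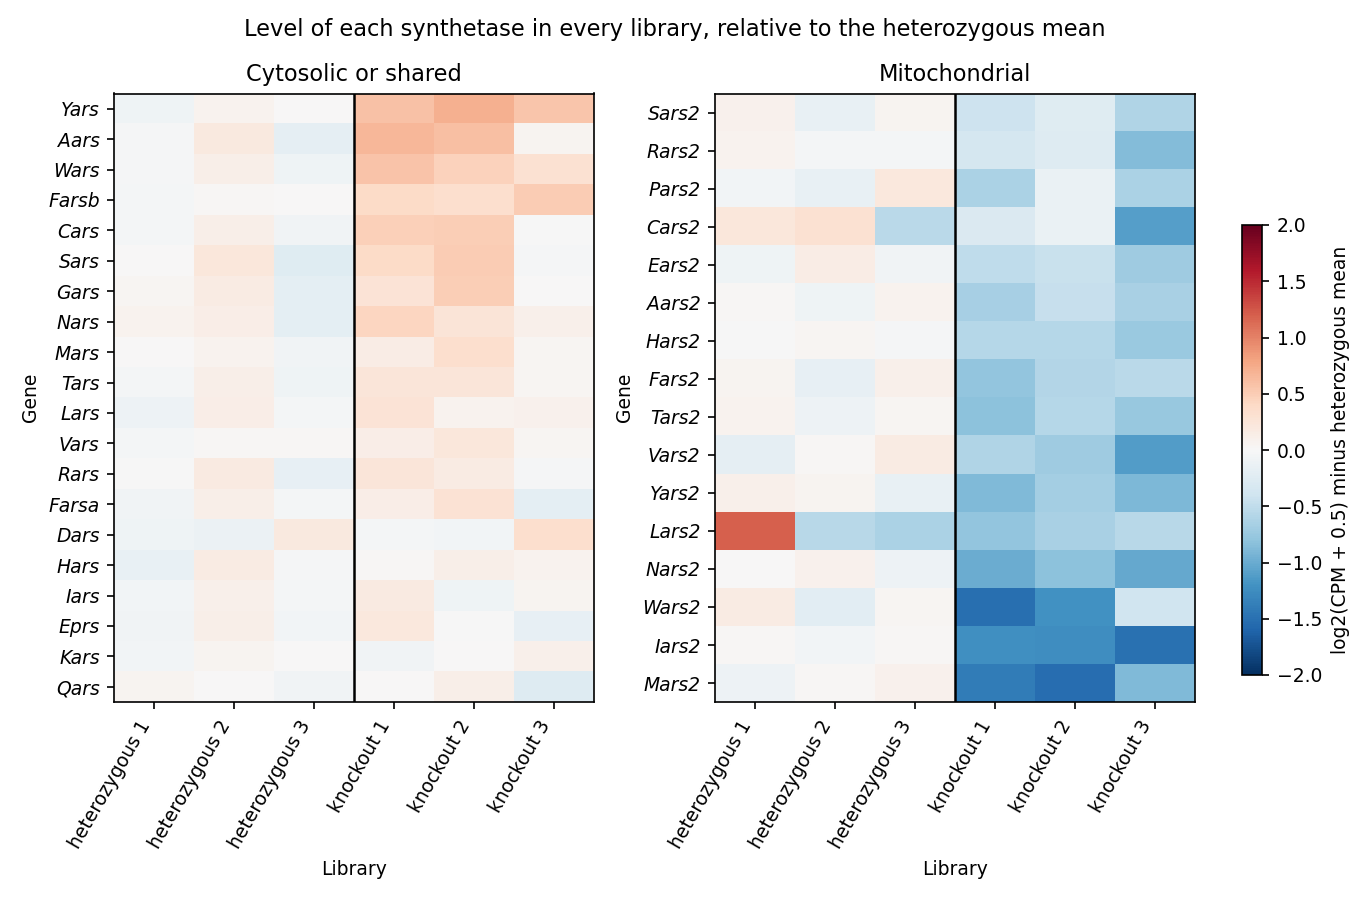
Level of each synthetase (rows) in each library (columns), as log2(CPM + 0.5) minus the mean of the 3 heterozygous-labelled libraries, red above and blue below. The mitochondrial panel is blue in knockout 1 to 3 for every gene, while Lars2 is red in heterozygous 1 alone.

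Iars2, the mitochondrial isoleucyl-tRNA synthetase, had the smallest p of all 36 members. It stood at 206, 194 and 206 CPM across heterozygous 1 to 3 and at 85.6, 85.2 and 71.7 CPM across knockout 1 to 3. The groups did not come near each other, and the level fell to 40.1% of the heterozygous-labelled one (log2 -1.32, SE 0.128, edgeR adjusted p = 0.0185). By prefix the log2 fold change was -1.23 (RF) and -1.51 (RE). The gene spans chr1:185284726-185329396 (GRCm38, minus strand), and 2148 of its 8885 annotated exon bases are overlapped on the other strand by Rab3gap2 and 2010103J01Rik. Without strand, reads of that stretch have no single source. Rab3gap2 itself stood at 34.6 ± 4.70 and 37.9 ± 4.03 CPM (SD, n = 3 each).

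Nars2, which charges asparagine in mitochondria, also fell. Its levels were 21.1, 22.2 and 19.6 CPM across heterozygous 1 to 3 and 10.2, 11.6 and 10.01 CPM across knockout 1 to 3. The highest knockout-labelled library was well below the lowest heterozygous-labelled one, with 50.7% of the level remaining (log2 -0.98, SE 0.144, edgeR adjusted p = 0.0426). The RF-titled and RE-titled values were -0.99 and -0.93. Nars2 spans chr7:96951505-97064758 (plus strand), with 284 of 6967 exon bases overlapped on the other strand by C230038L03Rik.

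Among the members that did not pass, Mars2, the mitochondrial methionyl-tRNA synthetase that serves both the first and the internal methionines, had the lowest estimate. It is annotated as 1 exon block at chr1:55237177-55248470 (plus strand). It stood at 7.25, 7.97 and 8.40 CPM across heterozygous 1 to 3 and at 2.69, 2.42 and 4.01 CPM across knockout 1 to 3, with no overlap (log2 -1.37, SE 0.245, edgeR adjusted p = 0.0700). It passed by DESeq2, by limma-voom, with the title prefix as a covariate, within the RF-titled libraries, without knockout 3 and with library size as the only scaling (0.684% of all genes called lower).

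Yars2 (tyrosine) stood at 23.2, 22.5 and 19.6 CPM across heterozygous 1 to 3 and at 11.6, 13.3 and 11.4 CPM across knockout 1 to 3. Its log2 fold change was -0.85 (SE 0.148, edgeR adjusted p = 0.0644). Tars2 (threonine) was at 44.7, 39.5 and 43.5 CPM and then 23.9, 28.5 and 25.01 CPM in the same order (log2 -0.72, adjusted p = 0.0719 by edgeR). Both had groups that did not overlap and differed by more than any spread within a group.

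Hars2 (histidine) was at 43.9, 45.02 and 43.1 CPM in the heterozygous-labelled libraries and 29.6, 29.4 and 26.2 CPM in the knockout-labelled ones (log2 -0.63, edgeR adjusted p = 0.0719). Its first exons overlap those of Hars, its cytosolic counterpart, head to head on the other strand of chromosome 18 over 195 bases. Fars2 (phenylalanine) was at 50.4, 43.2 and 51.6 CPM and then 27.7, 31.9 and 33.1 CPM (log2 -0.65, edgeR adjusted p = 0.0789). Lyrm4 (log2 0.46) and Nrn1 (log2 -0.06) overlap 616 of its 5747 exon bases on the other strand. Aars2 (alanine) was at 35.3, 32.4 and 36.2 CPM and then 21.6, 25.1 and 21.8 CPM (log2 -0.60, edgeR adjusted p = 0.0805). In Hars2, Fars2 and Aars2 the groups were again separate, and the knockout-labelled level was 63.9% to 66.0% of the other. Each of Yars2, Tars2, Hars2, Fars2 and Aars2 passed by DESeq2.

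Of the remaining mitochondrial members, Vars2 (valine) was at 31.3 ± 3.66 and 17.8 ± 3.24 CPM, with log2 -0.81 and an edgeR adjusted p of 0.0825. Ears2 (glutamate) was at 6.76 ± 0.654 and 4.46 ± 0.477 CPM with log2 -0.60. Sars2 (serine, log2 -0.43) and Rars2 (arginine, -0.47) were the nearest to 0, and for Rars2 the estimate was -0.31 without knockout 3. Wars2 (tryptophan) differed within the knockout label: it stood at 15.2, 11.5 and 13.9 CPM across heterozygous 1 to 3 but at 4.44, 5.54 and 10.1 CPM across knockout 1 to 3. Its log2 fold change of -1.02 (edgeR adjusted p = 0.213) became -1.45 without knockout 3, where it passed (edgeR adjusted p = 0.0391). Wars2 also passed by DESeq2, by limma-voom and within the RF-titled libraries, but not with the title prefix as a covariate. Pars2 (proline, log2 -0.50) and Cars2 (cysteine, -0.51) had overlapping groups, and Cars2 was at -0.27 without knockout 3.

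Lars2, the mitochondrial leucyl-tRNA synthetase, rested on 1 library. It stood at 289 CPM in heterozygous 1 and at 85.4 and 80.6 CPM in heterozygous 2 and 3, against 72.8, 80.3 and 85.6 CPM across knockout 1 to 3. The estimate of -0.93 (SE 0.484, edgeR adjusted p = 0.555) became -0.06 without heterozygous 1 (edgeR adjusted p = 0.998). Rn45s, the ribosomal RNA precursor, was also high in heterozygous 1 alone, at 5451 CPM against 394 to 916 CPM in the other 5 libraries. Its part in the Lars2 value was not tested. Rn45s made up 0.544% of the gene counts there. Leaving Lars2 out, the mitochondrial median was -0.65.

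**Figure D3:**
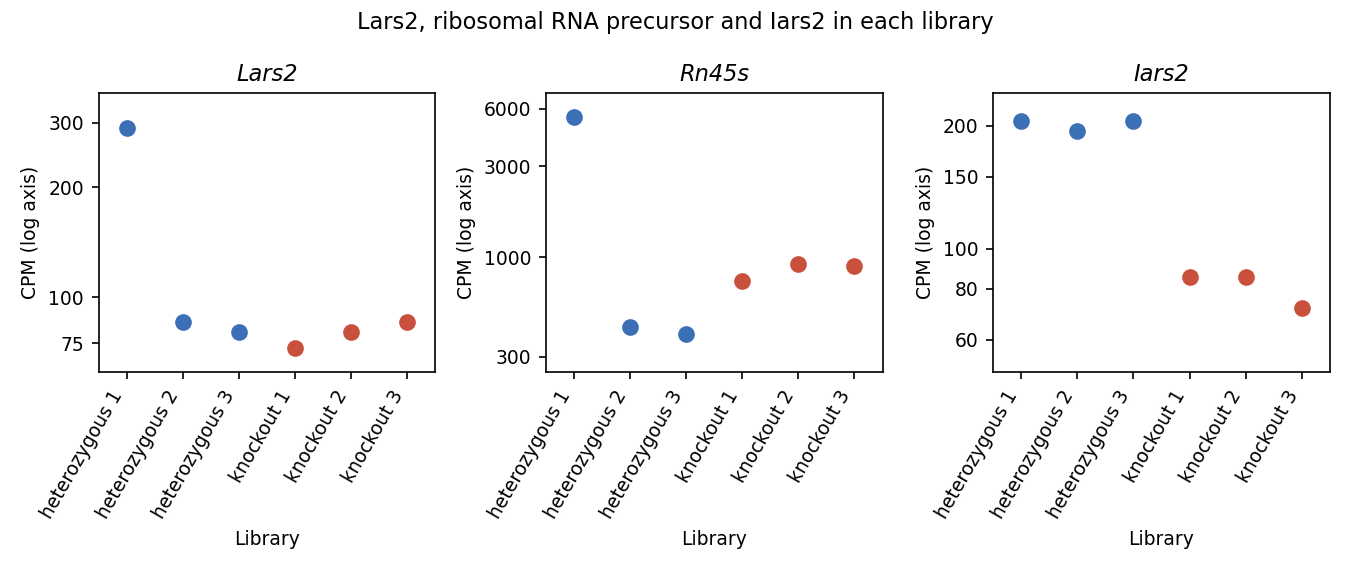
CPM on log axes for Lars2, the ribosomal RNA precursor Rn45s and Iars2 in the 3 heterozygous-labelled (blue) and 3 knockout-labelled (red) libraries. Heterozygous 1 stands above the other 5 libraries for Lars2 (289 CPM) and Rn45s (5451 CPM), whereas Iars2 separates all 3 blue from all 3 red points.

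Yars, the cytosolic tyrosyl-tRNA synthetase, had the highest estimate of all 36 members. It stood at 26.2, 29.4 and 28.2 CPM across heterozygous 1 to 3 and at 42.2, 45.8 and 41.4 CPM across knockout 1 to 3. The groups did not overlap and their means differed 1.54-fold (log2 0.63, SE 0.121, edgeR adjusted p = 0.0736). It passed by DESeq2 (adjusted p = 0.000751), by limma-voom and with the title prefix as a covariate. Yars spans chr4:129189760-129219607 (plus strand).

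Wars, the cytosolic tryptophanyl enzyme, which interferon is also known to induce, was at 46.0, 50.4 and 43.7 CPM across heterozygous 1 to 3 and at 69.4, 64.7 and 57.7 CPM across knockout 1 to 3. Its log2 fold change was 0.45 (SE 0.127, edgeR adjusted p = 0.162). Farsb, the beta subunit of the phenylalanyl enzyme, was at 43.6, 45.3 and 45.1 CPM and then 58.3, 56.6 and 63.5 CPM (log2 0.41, edgeR adjusted p = 0.147). Both were higher in every knockout-labelled library, and Farsb passed by DESeq2 (adjusted p = 0.0472). Its partner subunit Farsa did not follow, at 23.3 ± 1.68 and 24.9 ± 4.19 CPM (SD, n = 3 each; log2 0.09), and the difference between the subunits was not tested.

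Aars, the alanyl enzyme, was at 100.3, 117 and 90.2 CPM across heterozygous 1 to 3 and at 161, 155 and 106 CPM across knockout 1 to 3. On the same strand, Exosc6 covers 1326 of its 9282 annotated exon bases. Knockout 3 lay below heterozygous 2, so the groups overlapped (log2 0.46, SE 0.192, edgeR adjusted p = 0.403). By prefix it was 0.54 (RF) and 0.23 (RE). Cars (cysteine, log2 0.34) and Nars (asparagine, 0.26) also had knockout 3 below heterozygous 2. Cars was at 20.7, 23.1 and 20.2 CPM and then 29.7, 30.1 and 21.1 CPM. Nars was at 119, 125 and 99.6 CPM and then 154, 137 and 122 CPM. The RF and RE values were 0.45 and 0.06 for Cars but 0.25 and 0.29 for Nars.

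Sars (serine, log2 0.30) and Gars (glycine, 0.27) followed the same pattern with overlapping groups, and Gars was the most abundant cytosolic member per length. The other 11 cytosolic or shared members (Dars, Eprs, Hars, Iars, Kars, Lars, Mars, Qars, Rars, Tars and Vars) lay between -0.04 and 0.18. Kars, which serves both compartments, was nearly level at 85.6 ± 3.18 and 86.4 ± 5.48 CPM (log2 0.01, 95% interval -0.25 to 0.28). Eprs was at 154 ± 11.2 and 156 ± 21.2 CPM (log2 0.02). Each of Dars, Eprs, Farsa, Hars, Iars, Kars and Qars changed sign under at least 1 alternative setting, so their signs are not stable.

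Promoters of Yars and Aars are shown because they hold TGATGNAA (N any base), the core of the C/EBP-ATF response element to which ATF4 binds. Those of Yars2, the mitochondrial partner of Yars, and of Iars2 are shown beside them because they do not. Capitals mark the motif in either orientation. Each window runs from 130 bases before to 20 bases after the RefSeq gene start, 5′ to 3′ on the gene's strand (RefSeq, GRCm38.p6): chr4:129189773-129189922 (plus) for Yars, chr8:111033712-111033861 (plus) for Aars, chr16:16302835-16302984 (plus) for Yars2 and chr1:185329382-185329531 (minus) for Iars2. In GENCODE, Yars and Aars start further upstream, at 129189760 and 111033144, so their windows lie within those longer gene spans.
Yars: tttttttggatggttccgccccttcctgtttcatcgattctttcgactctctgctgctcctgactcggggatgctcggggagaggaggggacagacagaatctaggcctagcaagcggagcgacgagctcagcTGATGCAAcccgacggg
Aars: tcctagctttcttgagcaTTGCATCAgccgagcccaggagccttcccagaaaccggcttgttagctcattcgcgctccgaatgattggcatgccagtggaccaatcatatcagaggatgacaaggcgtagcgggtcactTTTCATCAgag
Yars2: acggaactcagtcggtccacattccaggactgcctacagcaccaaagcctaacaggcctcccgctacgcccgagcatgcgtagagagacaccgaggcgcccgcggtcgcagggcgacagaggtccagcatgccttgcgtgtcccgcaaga
Iars2: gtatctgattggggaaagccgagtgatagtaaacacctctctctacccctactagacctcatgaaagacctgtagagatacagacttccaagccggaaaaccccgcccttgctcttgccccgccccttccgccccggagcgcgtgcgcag
Of 12 cytosolic members with a promoter entry, 5 held this motif in their 300-base window (Aars, Gars, Iars, Tars and Yars), and none of 14 mitochondrial members did. Among all 27025 genes with an entry it was in 4.51%. With the open letter fixed as TGATGCAA it was in 4 cytosolic members (Aars, Iars, Tars and Yars) and 1.03% of all genes. The 5 holders had log2 fold changes of 0.63 (Yars), 0.46 (Aars), 0.27 (Gars), 0.17 (Tars) and 0.05 (Iars). The 7 cytosolic members with an entry and no match lay between -0.04 (Qars) and 0.41 (Farsb). A match describes letters only.

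Set side by side for the same amino acid, the mitochondrial partner was lower relative to the cytosolic one in all 16 pairs. The ratio of the partners within a library does not depend on how libraries are scaled, apart from the 0.5 CPM added before logs. In 14 of 16 pairs all 3 knockout-labelled ratios lay below all 3 others. Each of these had an exact two-sided permutation p of 0.1, the smallest that 3 against 3 allows, and an adjusted p of 0.114 over the 16 pairs. Proline and leucine overlapped (exact p = 0.2). All 16 differences were below 0 under each title prefix, and under each library left out in turn. The glutamate and proline pairs share Eprs and are not independent of each other. The median over pairs of the mitochondrial minus the cytosolic log2 fold change was -0.93.

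**Figure D4:**
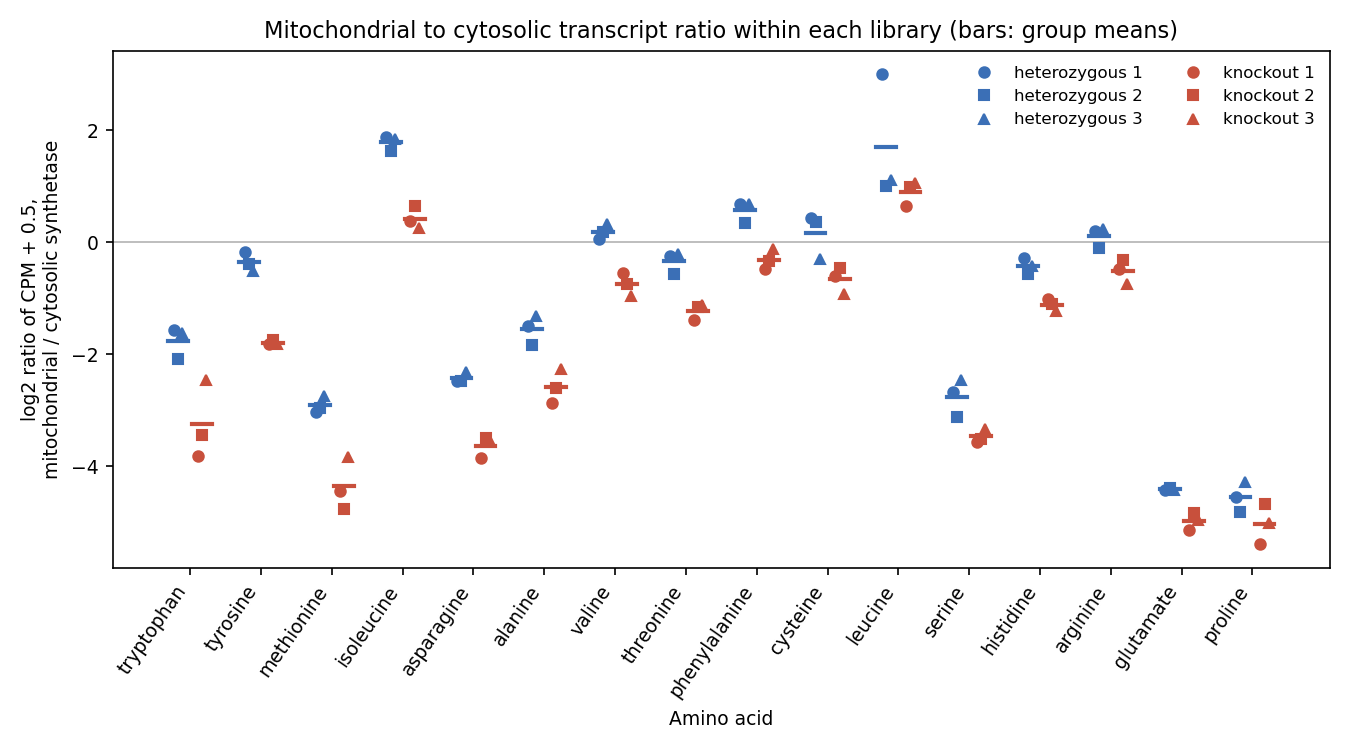
Log2 ratio of mitochondrial to cytosolic synthetase CPM (0.5 added to each) on the y axis for each amino acid, ordered by the size of the difference. Blue and red symbols are single heterozygous-labelled and knockout-labelled libraries and bars are group means. Red lies wholly below blue in 14 of 16 pairs, with proline and leucine overlapping.

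The widest gaps were for tryptophan, tyrosine, methionine, isoleucine and asparagine. For tyrosine the log2 ratio of Yars2 to Yars was -0.17, -0.38 and -0.52 in heterozygous 1, 2 and 3 and -1.82, -1.75 and -1.82 in knockout 1, 2 and 3. Both partners contributed, Yars2 at -0.85 and Yars at 0.63, and the ratio was 2.71-fold lower. For tryptophan the ratio of Wars2 to Wars was -1.57, -2.08 and -1.62 and then -3.82, -3.43 and -2.46, again with the partners on opposite sides of 0 (-1.02 and 0.45). By prefix this gap was -1.81 (RF) and -0.84 (RE).

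For methionine, isoleucine and asparagine the mitochondrial partner was further from 0 than the cytosolic one, as it was in every pair with all libraries. The ratio of Mars2 to Mars was -2.91 ± 0.145 in heterozygous-labelled and -4.35 ± 0.47 in knockout-labelled libraries (SD, n = 3 each), with Mars at log2 0.18. Iars2 to Iars went from 1.79 ± 0.135 to 0.42 ± 0.201, with Iars at 0.05. Nars2 to Nars went from -2.42 ± 0.0864 to -3.63 ± 0.191, with Nars at 0.26. With all libraries the narrowest gaps were for proline, arginine and glutamate. The leucine gap of -0.80 rested on heterozygous 1: it was -0.16 without that library and -0.05 in the RE-titled pair, narrower than these 3. Pars2 to Eprs went from -4.55 ± 0.263 to -5.03 ± 0.36, Rars2 to Rars from 0.11 ± 0.186 to -0.51 ± 0.217, and Ears2 to Eprs from -4.41 ± 0.0241 to -4.97 ± 0.145.

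Levels between genes can be set side by side only per length, as CPM per kilobase of annotated exons. On that scale the mitochondrial partner was the lower of the pair in 10 of 16 pairs in the heterozygous-labelled libraries. Per kilobase of the longest transcript it was 11. Gars led the cytosolic set at 46.6 ± 5.67 and Cars was last at 3.24 ± 0.238. The last place depends on the length used: per kilobase of the longest transcript Vars (6.58) was below Cars (6.63). In the mitochondrial set Iars2 was at 22.7 ± 0.78 and Rars2 at 18.7 ± 0.862. Lars2 was at 13.7 ± 10.7, but above Iars2 in heterozygous 1, and per kilobase of the longest transcript its mean was 38.9 against 36.9 for Iars2. Ears2 (1.31 ± 0.127) and Mars2 (0.70 ± 0.0511) were last. In the knockout-labelled libraries Iars2 was at 9.10 ± 0.892 and Rars2 at 13.5 ± 2.95, so their order was the opposite there, with 3 libraries each. Neighbours such as Yars2 (6.91 ± 0.612) and Aars2 (7.27 ± 0.412) did not differ beyond their spread.

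The genes that work beside the synthetases are given by list, with the counts over all tested genes as above (0.534% called lower, 46.9% below 0, 53.1% above 0). Mitochondria have no glutaminyl-tRNA synthetase and make that transfer RNA through an amidotransferase. Its subunit gene Pet112 (named Gatb in newer annotation) fell from 44.0, 52.5 and 44.6 CPM to 17.5, 21.6 and 21.4 CPM (log2 -1.22, SE 0.147, edgeR adjusted p = 0.0259). The other subunit genes Qrsl1 (log2 -0.13) and Gatc (0.04) did not pass, nor did Mtfmt, which formylates the initiator (-0.64). In that list 1 of 4 genes fell. Among 20 genes of mitochondrial tRNA processing 1 fell, the median was -0.29, 14 were below 0 and 6 above. It was Mto1, which modifies the wobble base of several mitochondrial transfer RNAs, at 51.1, 45.5 and 44.0 CPM and then 19.3, 19.98 and 21.5 CPM (log2 -1.21, edgeR adjusted p = 0.019). Trmt10c (-0.89, edgeR adjusted p = 0.0581) and Osgepl1 (-0.82, adjusted p = 0.0624) had the next smallest p.

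The genes listed as mitochondrial translation factors were all below 0 (10 of 10, where 46.9% of all tested genes were, with a median of -0.53). Of these, 2 fell (0.534% of all tested genes called lower). Gfm1, the elongation factor that moves the ribosome along, went from 244, 214 and 194 CPM to 88.2, 83.6 and 79.9 CPM (log2 -1.37, SE 0.135, edgeR adjusted p = 0.0185). Gfm2, which acts in ribosome recycling, had a log2 fold change of -1.02 (edgeR adjusted p = 0.0259). Tufm, which carries charged transfer RNAs to the mitochondrial ribosome, was at 199, 181 and 192 CPM and then 101, 124 and 104 CPM without passing (log2 -0.80, edgeR adjusted p = 0.0581). Like those of Iars2 and Nars2, none of these calls was made without heterozygous 2, knockout 1 or knockout 2.

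On the cytosolic side no gene of the partner lists passed. The scaffold genes of the multisynthetase complex were Aimp1 (log2 -0.12), Eef1e1 (-0.05) and Aimp2, at 17.9, 17.7 and 26.5 CPM and then 11.0, 9.71 and 12.0 CPM (-0.92, edgeR adjusted p = 0.084). Cytosolic tRNA processing and transport had 20 of 26 tested genes above 0 (53.1% of all tested genes) and a median of 0.17, but 15 above and 11 below 0 in the RE-titled pair, with a median of 0.0156. The 5 editing and deacylase factors had a median of 0.09. In the eEF1 complex, which takes charged transfer RNAs to the cytosolic ribosome, Eef1a1 was at 0.23. Eef1a2, the form abundant in muscle, was at -2.43 (edgeR adjusted p = 0.0715). Muscle markers had a median of -2.21, and the part of muscle in the Eef1a2 value was not tested.

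Genes of the amino acid response, of which 27 of 30 were tested, had a median of 0.30 with 21 above 0 (53.1% of all tested genes). None passed over all genes tested. At an unadjusted p below 0.05, 3 were higher (Atf4, Trib3 and Mthfd2; 4.05% of all tested genes) and 1 was lower (8.04%). That 1 was Shmt2, which makes glycine from serine in mitochondria and had the smallest p of the list. It was at 22.7, 23.4 and 25.4 CPM and then 16.3, 14.4 and 16.4 CPM, with groups that did not overlap (log2 -0.61, edgeR adjusted p = 0.0829). Mthfd2, the next enzyme of mitochondrial folate metabolism, was at 3.73, 2.82 and 1.85 CPM and then 13.98, 7.14 and 3.92 CPM (log2 1.58, edgeR adjusted p = 0.22). Atf4 was at 118, 153 and 125 CPM across heterozygous 1 to 3 and at 154, 204 and 227 CPM across knockout 1 to 3 (log2 0.56, SE 0.184, edgeR adjusted p = 0.242). Trib3 was at 4.21, 5.70 and 6.05 CPM and then 6.54, 11.7 and 11.4 CPM (log2 0.90, edgeR adjusted p = 0.213). Asns, asparagine synthetase, overlapped at 56.6, 51.6 and 65.7 CPM and then 60.8, 72.1 and 71.4 CPM (0.23, edgeR adjusted p = 0.647). The list of kinases, sensors and related genes upstream of ATF4, with Eif2s1 and Impact among them, had a median of 0.15 over 7 genes. Eif2ak4, the sensor of uncharged transfer RNA, was at 0.34 (edgeR adjusted p = 0.376).

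Muscle marker sums also lay apart by label, and they are given here beside the synthetases by library. Their sum was 10719, 24076 and 31518 CPM across heterozygous 1 to 3 and 6639, 3838 and 3791 CPM across knockout 1 to 3. In the same order Iars2 was at 206, 194 and 206 CPM and then 85.6, 85.2 and 71.7 CPM. The mitochondrial median deviation was 0.05, -0.05 and 0.03 and then -0.73, -0.58 and -0.74, with the heterozygous mean as its reference. The muscle sums of the labels did not overlap, so muscle content and genotype label cannot be told apart in these 6 libraries, and the part of muscle in the synthetase values was not tested.

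**Figure D5:**
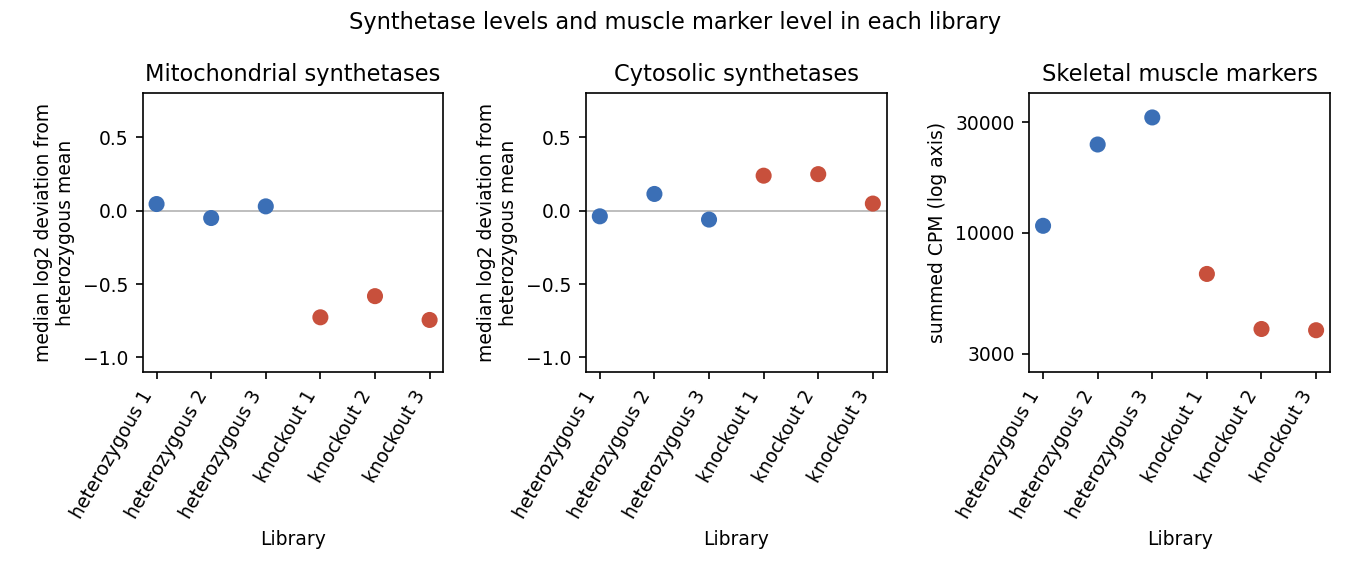
Median log2 deviation of the mitochondrial (left) and cytosolic (middle) synthetases from their heterozygous mean, and summed CPM of 20 muscle markers on a log axis (right), for each library. The mitochondrial medians lie near 0 in the heterozygous-labelled libraries, whose mean is the reference, and between -0.58 and -0.74 in the knockout-labelled ones. Muscle sums also lie apart by label, from 10719 to 31518 CPM in the blue heterozygous-labelled libraries and from 3791 to 6639 CPM in the red knockout-labelled ones.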

How the data were processed

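Reads of 6 brown adipose tissue libraries, 3 per genotype label, were counted per gene by the authors, and the deposited table holds raw counts with 1 column per library. Per the submitters' processing notes the build was mm10 and the tools, listed with no role, were STAR 2.7.2b, Bowtie2 2.3.4.3, HTSeq, Trim Galore, edgeR and SAMtools 1.9. No source used here gives the annotation, the strand setting or how multiple matches were counted. The 5 lines that name no gene (41.7% to 56.1% of each column, mostly reads outside features or with several alignments) were kept out of library sizes.

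Groups came from the genotype labels, and replicate numbers from accession order, which pairs nothing. The labels' protocols speak of 3 mice per genotype, and every pair of libraries differed beyond sampling noise (chi-square over its degrees of freedom at least 39.3). Genotype was the only term of the model, fitted in edgeR 4.0.16 (R 4.3.3) by the robust quasi-likelihood method after TMM scaling and filterByExpr (minimum count 10, minimum total 15). P-values were adjusted by Benjamini-Hochberg over 13300 genes, with a threshold of 0.05. CPM use TMM-scaled library sizes. SE is the size of the log2 fold change divided by the square root of F. The code was tested on simulated data.

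Partner ratios used log2(CPM + 0.5) and an exact permutation test. Positions and exon lengths came from GENCODE M21 on GRCm38, the assembly mm10 names, in which all 36 symbols matched. RefSeq promoters (300 bases) matched 26 members. Members and lists were chosen with earlier results of these data known. Library values are given for members past the threshold, up to 6 further members per compartment with the smallest p and the 5 widest and 3 narrowest pairs, while pathway lists name members past the threshold, up to 3 with the smallest p, and always Atf4, Asns and Trib3. Some further values were named after they were seen. Alternatives were RLE scaling, library size only, muscle markers left out of library sizes, other filters on low counts, DESeq2 1.42.0, limma-voom (limma 3.58.1), title prefix as a covariate, RF-titled libraries alone and each library left out.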

Additional observations from a re-analysis of the deposited data

How the results depend on the processing

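The 16 pair differences stayed below 0 in all 160 recomputed values, and the 3 medians kept their sign under every alternative run: -0.75 to -0.62 for mitochondrial members, 0.11 to 0.22 for cytosolic ones and -1.01 to -0.84 for pairs. The number of mitochondrial calls was less stable, and the share of all tested genes called lower, given in brackets, moved too. Mitochondrial calls numbered 2 in the main test (0.534%), 10 by DESeq2 (5.04%), 7 by limma-voom (1.24%) and 7 with the title prefix as a covariate (1.78%). They numbered 4 in the RF-titled libraries (0.85%), 9 at an adjusted p of 0.1 (3.31%) and 0 to 4 with single libraries left out (0% to 2.81%). Cytosolic calls numbered 0 (0.0526% of all tested genes called higher), but 2 by DESeq2 (Farsb and Yars, 0.995%). Yars was the 1 call by limma-voom (0.218%), with the prefix (0.492%) and at 0.1 (0.451%). Why the calls moved was not tested.

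Signs changed only for cytosolic members close to 0. With library size only, the log2 fold changes were -0.0295 for Eprs, -3.9e-05 for Iars and -0.0427 for Kars. Kars was also at -0.0158 by limma-voom and -0.0338 in the RF-titled libraries, where Qars was at 0.0258. With single libraries left out the ranges were -0.0651 to 0.19 for Dars, -0.0876 to 0.0994 for Eprs, -0.0172 to 0.212 for Farsa, -0.00588 to 0.154 for Hars, -0.012 to 0.124 for Iars, -0.0432 to 0.0577 for Kars and -0.117 to 0.0532 for Qars. No paired analysis was possible because the labels carry no replicate numbers shared between groups. Protein identity between partners was not computed.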

Other observations

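Some members followed the title prefix more than the genotype label. Cars2 was lowest in the RE-titled library of each group, at 16.4 CPM beside 28.1 and 29.8 CPM in the heterozygous-labelled libraries and at 10.9 CPM beside 19.5 and 21.7 CPM in the knockout-labelled ones. Dars, the cytosolic aspartyl enzyme, was highest there, at 98.3 CPM beside 81.3 and 79.5 CPM and at 109 CPM beside 83.5 and 82.5 CPM. No label says what the prefix stands for, and this pattern was not tested.

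Several cytosolic members were near their heterozygous-labelled level in knockout 3 and higher in knockout 1 and 2. Gars was at 175, 203 and 146 CPM and Sars at 137, 149 and 103 CPM in knockout 1, 2 and 3, beside heterozygous-labelled means of 145 ± 17.7 and 105 ± 16.7 CPM (SD, n = 3 each). Yars did not share this shape, at 42.2, 45.8 and 41.4 CPM in the same libraries. Heterozygous 3, RE-titled like knockout 3, was the lowest of its group for Gars (126 CPM) and Sars (88.6 CPM). Within the RE-titled pair the log2 ratio was 0.206 for Gars and 0.212 for Sars.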
